A study of Mus musculus with 4 samples.

Results

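The insulin receptor signalling genes described here were Insr, Irs1, Irs2, Pik3r1, Pik3ca, Akt1, Akt2 and Trib1, which were 8 of the 31709 genes named on the array. They were taken by name: every gene spot of the 4 scanned arrays that carried one of these names was used, whatever its value. This gave 14 oligonucleotide probes, of which 13 probes from 7 genes had a value on all 4 arrays, and the single Akt1 probe had a value on 3 arrays. The study compared livers of male C57BL/6J mice (strain given as C57/Bl6 in the sample characteristics) aged 8 to 12 weeks. Fasted mice had been without food for 24 h, and re-fed mice had been without food for 24 h and then ate for 2 h. Both groups had therefore been fasted for the same time, and no liver came from a mouse that fed freely throughout. Each group held 4 livers from separate animals, and each two-colour Agilent array carried 200 ng of RNA from 1 fasted and 1 re-fed liver paired at random, with the fasted liver in Cy5 on arrays 1 and 2 and in Cy3 on arrays 3 and 4. In whole liver, fewer cells of a type and less RNA per cell cannot be told apart.

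Insulin released after a meal binds the insulin receptor on hepatocytes, and the activated receptor phosphorylates the adaptor proteins IRS1 and IRS2. These recruit phosphoinositide 3-kinase, whose lipid product brings the AKT kinases to the membrane, and AKT then restrains glucose production by excluding FOXO1 from the nucleus and favours glycogen and lipid synthesis. In liver, Irs2 is known as an adaptor whose own transcript responds to the fed or fasted state, and the pathway is one of the main routes by which a meal switches hepatic metabolism.

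Of the 8 genes, Irs2 alone was called as changed: its transcript was 2.55-fold higher in fasted than in re-fed liver. A call required an adjusted p below 0.10 and a change of at least 1.5-fold in limma. By this rule 1 of the 13 measured probes was called higher in fasted liver and 0 were called lower, while over all 19721 probes kept on the array 1.7% were called higher and 2.08% lower. At an unadjusted p below 0.05, 4 of these 13 probes stood apart from no change, namely those of Irs2 and Pik3r1 and a pair of Insr probes. These 4 probes also had adjusted p below 0.10, a limit that 10.9% of all kept probes passed at any size of change. Pik3r1 was lower in fasted liver on 4 of 4 arrays and Insr was higher on 4 of 4 arrays, and both missed the limit on the size of the change. Irs1, Pik3ca, Akt1, Akt2 and Trib1 were not called.

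The sequences behind the Irs2 measurement and the start site regions of both adaptor genes are given first, since Irs1 and Irs2 encode related proteins and only Irs2 was called. Irs2 was read by a single probe of 60 bases, A_66_P102260, at chr8:11004490-11004549 in mm9 on the minus strand, which begins at base 3881 of the RefSeq transcript according to the array's annotation. The probe sequence is shown because every Irs2 value rests on it.
Irs2 probe: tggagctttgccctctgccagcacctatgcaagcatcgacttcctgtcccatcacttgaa

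The 150 bases before the annotated start sites of Irs2 (chr8:11008930-11009079, minus strand) and Irs1 (chr1:82291440-82291589, minus strand) are shown from RefSeq for GRCm38.p6, a different build from that of the probe coordinates. They are written 5′ to 3′ on the strand of the gene, and capitals mark every match to the motifs that were searched.
Irs2: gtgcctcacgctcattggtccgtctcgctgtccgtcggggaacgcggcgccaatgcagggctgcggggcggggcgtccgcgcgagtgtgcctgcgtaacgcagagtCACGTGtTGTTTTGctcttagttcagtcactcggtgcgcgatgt
Irs1: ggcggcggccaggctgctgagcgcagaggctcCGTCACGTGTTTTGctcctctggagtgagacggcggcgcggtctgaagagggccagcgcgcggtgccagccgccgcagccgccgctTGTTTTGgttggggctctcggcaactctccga

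In the Irs2 sequence the capitals are an E-box, CACGTG, at position -44 from the start site and the insulin response motif TGTTTTG at position -37. In the Irs1 sequence they are the CRE core TGACG on the opposite strand at -118, an E-box at -115, and TGTTTTG at -111 and again at -32, and the first 3 of these matches overlap. A CRE is the element bound by CREB, E-boxes are bound by basic helix-loop-helix factors such as USF and SREBP, and TGTTTTG is the core of the insulin response element that binds FOXO proteins. Both strands were searched in windows of 300 bases, from 250 bases before to 50 bases after each start site. An E-box was in 7.15% and TGTTTTG in 6.28% of all 32851 windows, and of the 6 members with a window Irs1 and Irs2 had both motifs and the others neither. An E-box followed on the same strand by TGTTTTG, overlapping it or at most 1 base apart, was in 9 windows of 8 genes, which is 0.0274% of all windows, and these included Irs1 and Irs2. That arrangement was chosen after the windows had been read, so its rarity is a description. The other members with a window were Pik3r1 with 2, Pik3ca, Akt1 with 2 and Akt2 with 4, which made 11 windows for 6 members. The full CRE, TGACGTCA, was in 1.79% of all windows and in 0 of these 11. The CRE core was in 20.8% of all windows and in 4 of these 11, namely that of Irs1, 1 of 2 of Pik3r1 and 2 of 4 of Akt2. The FOXO motif TGTTTAC was in 3.65% of all windows and in 1 of 2 of Akt1, and TATAAA in 13.6% and in 1 of 2 of Pik3r1. A match is not evidence of binding, and no match says only that these letters are not in the window.

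The quality of the arrays bears on all values. Median gene spot intensity was 40 to 75 in the red and 44 to 96 in the green channel, over local backgrounds of 25 to 35 and 20 to 33. All 14 member probes were well above background in all 4 fasted and all 4 re-fed livers, and 0 of their spots were saturated. Over the kept probes, array ratios correlated more closely within a dye orientation, at 0.66 and 0.75, than between orientations, at 0.22 to 0.40, so the means within each orientation are given for the main results and for named genes with a dye effect at an adjusted p below 0.10. All 7 hepatocyte markers were above background in every liver and none of the 5 muscle markers was in any. On array 3 the re-fed liver carried pancreatic transcripts: the median log2 ratio of 10 acinar markers was -3.67 there and 0.00, -0.06 and 0.04 on the others. The insulin transcripts Ins1 and Ins2 had ratios of -2.53 and -2.19 on that array, and Ins2 lay between -0.17 and 0.27 on the other arrays. The globin transcript Hba-a1 had ratios of 2.45 on array 1 and 2.48 on array 3. The part of this tissue in the results was not tested, and the values of the main results without array 3 are given below.

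**Figure D1:**
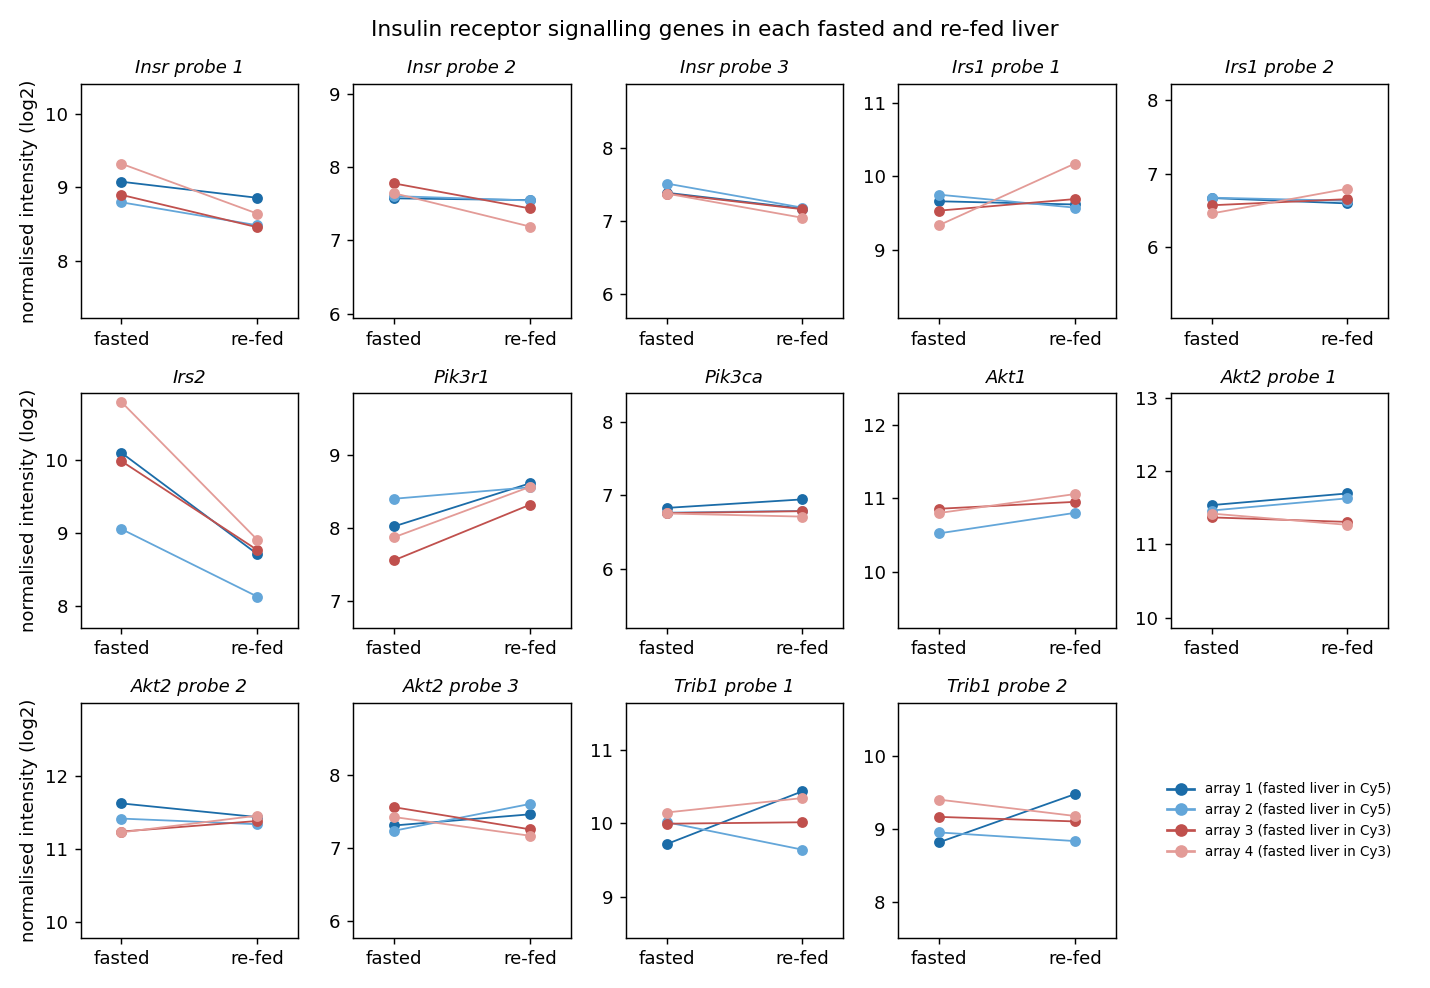
Normalised log2 intensity (y axis, the same span in every panel) of each member probe in the 4 fasted and the 4 re-fed livers (x axis). Each line joins the livers hybridised to one array, coloured by array and dye. The Irs2 lines slope down on every array with no overlap between the groups, the Insr lines slope down and the Pik3r1 lines up on every array, and the lines of Irs1, Akt2 and Trib1 go both ways. Array 1 is missing for Akt1.

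Insr encodes the insulin receptor, the tyrosine kinase that starts the cascade, and was read by 3 probes, which begin at bases 8550, 4745 and 6193 of its RefSeq transcript. The brightest, A_52_P494514 (probe 1, chr8:3151667-3151726 in mm9), had log2 intensities of 9.08, 8.80, 8.90 and 9.32 in the fasted livers of arrays 1 to 4 and of 8.86, 8.48, 8.46 and 8.64 in the re-fed livers. The fasted liver was the higher on every array, but the lowest fasted liver lay below the highest re-fed liver. The mean log2 ratio of fasted over re-fed was 0.41 ± 0.20 (SD, n = 4 arrays; 95% confidence interval 0.18 to 0.65), a 1.33-fold difference with an adjusted p of 0.0618 in limma. It passed the limit on p and missed that of 1.5-fold, and its mean was 0.27 on arrays 1 and 2 and 0.56 on arrays 3 and 4.

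The other Insr probes gave smaller ratios in the same direction. A_55_P2173927 (probe 2) had fasted levels of 7.58, 7.61, 7.78 and 7.65 and re-fed levels of 7.55, 7.55, 7.44 and 7.19, and its mean ratio was 0.22 ± 0.21 with an adjusted p of 0.268. A_55_P2172566 (probe 3) had fasted levels of 7.38, 7.51, 7.37 and 7.37 and re-fed levels of 7.17, 7.18, 7.16 and 7.04, and its mean ratio was 0.27 ± 0.066, or 1.21-fold, with an adjusted p of 0.0796. On both probes the 4 fasted livers lay above the 4 re-fed livers, as on 13.7% of all kept probes the groups did not overlap in one direction or the other. All 12 ratios from the 3 probes were above 0, but they come from the same 4 pairs of livers and are not independent. Probe 2 had only 0.02 and 0.06 on arrays 1 and 2. The differences between probes were 0.05 to 0.19 on the log2 scale and none had an adjusted p below 0.10. Without array 3, the ratio of the brightest probe was 0.40 with an adjusted p of 0.214, and adjusted p was above 0.10 in 3 of the 4 fits that left out 1 array. For A_55_P2172566 it was above 0.10 in all 4 (0.134 to 0.245).

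Irs2 encodes the adaptor that carries much of the receptor's signal in liver. Its log2 intensities were 10.09, 9.05, 9.98 and 10.79 in the fasted livers and 8.71, 8.13, 8.77 and 8.91 in the re-fed livers. The lowest fasted liver lay just above the highest re-fed liver, so the groups did not overlap, as on 13.7% of all kept probes. Array 2 held the lowest Irs2 level of both groups, and array 4 the highest. The ratios on the 4 arrays were 1.38, 0.92, 1.21 and 1.88, with a mean of 1.35 ± 0.40 (SD, n = 4; 95% confidence interval 0.98 to 1.72). This corresponds to 2.55-fold higher in fasted liver, between 1.97-fold and 3.29-fold, with an adjusted p of 0.0111 in limma, and it was the 47th highest ratio of 19721. Irs2 was higher in both dye orientations, by 1.15 on arrays 1 and 2 and by 1.55 on arrays 3 and 4. It was 1.40 with an adjusted p of 0.0470 without array 3. The call was lost when the background was modelled on all spots, including the few with extreme local background (0.72, adjusted p = 0.559), a setting under which 20 probes were called on the whole array.

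Irs1 encodes the other main IRS adaptor. On its brighter probe, A_52_P175242 (chr1:82229692-82229751 in mm9), fasted levels were 9.66, 9.75, 9.53 and 9.33 and re-fed levels 9.62, 9.57, 9.69 and 10.18. The groups overlapped, and the fasted liver was the higher on 2 arrays and the lower on 2. The mean ratio was -0.19 ± 0.45 (SD, n = 4; 95% confidence interval -0.60 to 0.21; adjusted p = 0.586), and array 4 alone gave -0.84. The dimmer probe, A_52_P171212, gave 0.07, 0.04, -0.08 and -0.34 with a mean of -0.08 ± 0.19 and an adjusted p of 0.708. The Irs1 ratio was above 0 in the orientation with fasted RNA in Cy5 and below 0 in the other on both probes (0.11 and -0.50 on the brighter), while the dye effect itself was not called (adjusted p = 0.160 and 0.249). Across the members an effect of dye passed an adjusted p of 0.10 for 1 of 13 probes, a probe of Akt2, and it did so for 14.8% of all kept probes. The upper limit of the Irs1 interval, 0.21, lay below the lower limit of the Irs2 interval, 0.98, but the difference between these genes was not itself tested.

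**Figure D2:**
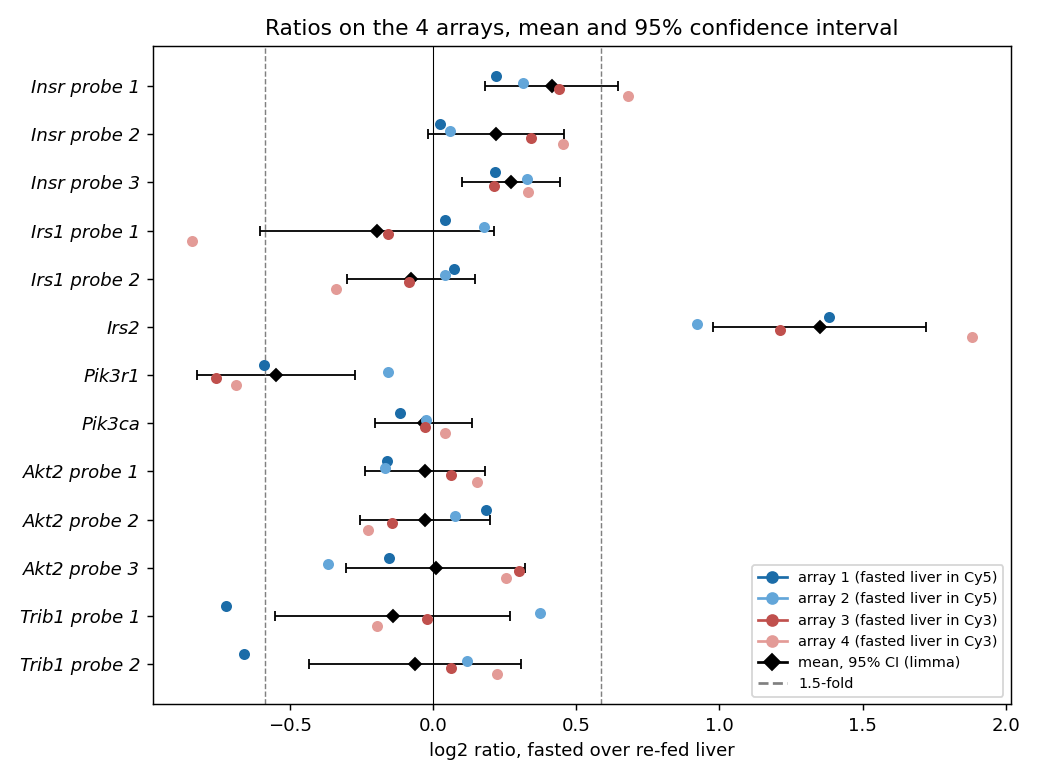
Log2 ratio of fasted over re-fed liver (x axis) for the 13 member probes measured on every array (y axis). Coloured points are the 4 arrays, diamonds the mean, bars the 95% confidence interval from limma, and dashed lines mark 1.5-fold. The Irs2 interval, 0.98 to 1.72, lies wholly beyond the dashed line, and that of Pik3r1, -0.82 to -0.27, straddles the line on the other side.

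Pik3r1 encodes the regulatory subunit p85α, which docks the kinase to IRS proteins, and had a single probe, A_51_P511236 (chr13:102454406-102454465 in mm9). Its fasted levels were 8.02, 8.40, 7.56 and 7.87 and its re-fed levels 8.61, 8.56, 8.32 and 8.56. Each fasted liver was lower than the re-fed liver on its array, although the fasted liver of array 2 was above the re-fed liver of array 3. The ratios were -0.59, -0.16, -0.76 and -0.69, with a mean of -0.55 ± 0.27 (SD, n = 4; 95% confidence interval -0.82 to -0.27). The transcript was thus 1.46-fold higher in re-fed liver with an adjusted p of 0.0467, just short of the 1.5-fold limit, and its mean ratio was -0.37 on arrays 1 and 2 and -0.72 on arrays 3 and 4. Pik3r1 was called lower in fasted liver under 7 of 19 alternatives, which included plain background subtraction (-0.67) and the authors' deposited ratios (-0.61). Without array 3 it was -0.48 with an adjusted p of 0.182, and adjusted p was above 0.10 in 3 of the 4 fits that left out 1 array.

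Pik3ca encodes the catalytic subunit p110α. Its levels were 6.83, 6.76, 6.76 and 6.75 in fasted and 6.95, 6.79, 6.79 and 6.71 in re-fed livers, on a probe at chr3:32360630-32360689 in mm9. The groups overlapped, and the mean ratio was -0.03 ± 0.065 (SD, n = 4; 95% confidence interval -0.20 to 0.14; adjusted p = 0.860). The probe was dim, and its ratio was -0.13 from the authors' deposited ratios and -0.24 from the processed signals of Feature Extraction. It was called under neither.

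Akt1 and Akt2 encode the AKT kinases, of which Akt2 is known as the form most tied to insulin's metabolic actions. The 3 Akt2 probes, of which the brightest lies at chr7:28424405-28424464 in mm9, had mean ratios of -0.03 ± 0.16, -0.03 ± 0.19 and 0.01 ± 0.32 with adjusted p of 0.902, 0.912 and 0.978. On the brightest, fasted levels were 11.54, 11.46, 11.37 and 11.42 and re-fed levels 11.70, 11.63, 11.31 and 11.27, so the groups overlapped, and its 95% confidence interval was -0.24 to 0.18. The dye effect that passed was on the third, A_55_P2066523 (adjusted p = 0.0650), whose ratio was -0.26 on arrays 1 and 2 and 0.28 on arrays 3 and 4. The first probe had the same signs in each orientation (-0.16 and 0.11) and the second the opposite (0.13 and -0.19). This was so although the second, at chr7:28424412-28424471, overlaps most of the first, so these 2 probes read nearly the same stretch.

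The Akt1 probe (chr12:113892079-113892138 in mm9) was flagged as not uniform in both channels on array 1 and was left out there, so it was not among the 13 probes. Its levels on arrays 2, 3 and 4 were 10.52, 10.86 and 10.80 in fasted and 10.80, 10.95 and 11.06 in re-fed livers. Each fasted liver was lower than its re-fed partner, but the groups overlapped. The ratios of -0.28, -0.09 and -0.26 had a mean of -0.21 ± 0.10 (SD, n = 3 arrays; 95% confidence interval -0.44 to 0.01), with an adjusted p of 0.273 in the limma fit without array 1. With the flagged spot kept, all 4 ratios were below 0 and the mean was -0.16 ± 0.13 with an adjusted p of 0.302. Akt1 was not called in either fit.

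Trib1 encodes a Tribbles pseudokinase, which brings the transcription factor C/EBPα to the COP1 ubiquitin ligase. Its brighter probe, A_52_P573552 (chr15:59487662-59487721 in mm9), had fasted levels of 9.72, 10.02, 9.997 and 10.15 and re-fed levels of 10.44, 9.64, 10.02 and 10.35. The groups overlapped and the livers of array 1 differed most. The ratios were -0.72, 0.37, -0.02 and -0.20, with a mean of -0.14 ± 0.46 (SD, n = 4; 95% confidence interval -0.55 to 0.27; adjusted p = 0.707). The second probe gave -0.66, 0.12, 0.06 and 0.22 with a mean of -0.06 ± 0.40 and an adjusted p of 0.872. Both means were above 0 without array 1, at 0.05 and 0.13.

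Of the 13 probes, that of the adaptor gene Irs2 had the ratio farthest from 0. Those of the kinase genes below it in the cascade, Pik3ca and Akt2, had the ratios nearest to 0 under the reported setting. The Pik3ca probe was dim, and its ratio moved to -0.24 with the processed signals of Feature Extraction. Over the 8 pairs of probes to the same member, 0 differed at an adjusted p of 0.10, against 28 of 4369 such pairs on the array (0.641%). The genes whose 4 ratios were closest to those of Irs2, by root mean square difference over the 4 arrays, were Zbed5 (0.297), 4833420G17Rik (0.352) and Clpx (0.353), with mean ratios of 1.34, 1.07 and 1.27.

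**Figure D3:**
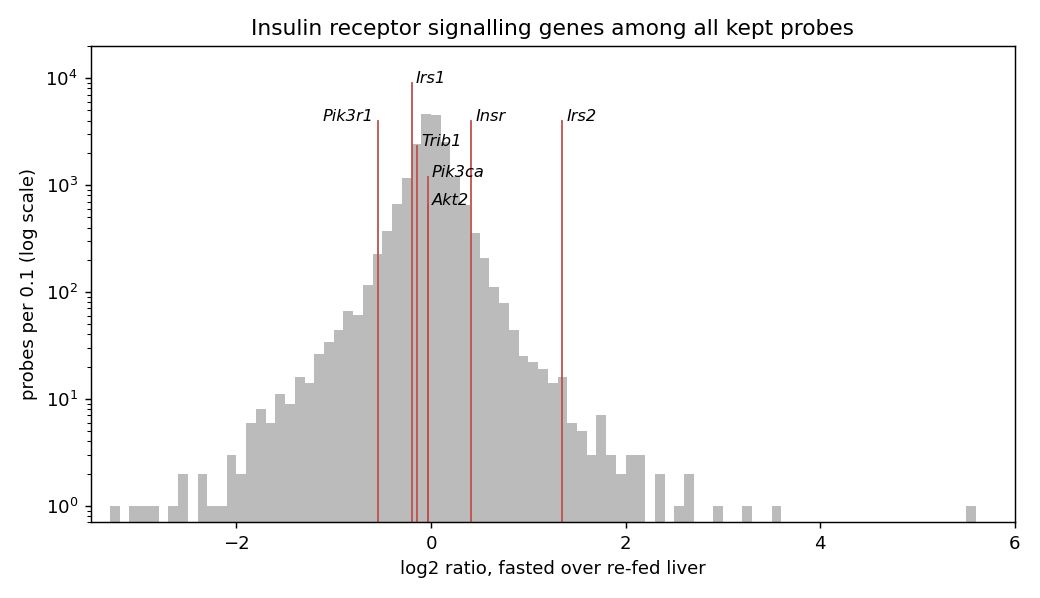
Histogram of the mean log2 ratio of fasted over re-fed liver (x axis) for the 19721 kept probes, with the number of probes per 0.1 on a logarithmic y axis. Red lines mark the brightest probe of each of the 7 members measured on every array. Irs2, at 1.35, stands in the sparse right tail, and Pik3ca, Akt2, Trib1 and Irs1 stand in the centre.

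Of 4 genes that insulin is known to repress in liver, 4 were called higher in fasted liver on their brightest probes, beside 292 of all 16054 genes. The genes it is known to induce are given by value. Both lists were chosen with earlier results of these data known, and the study itself reported G6pc, Pck1 and Ppargc1a as induced by fasting. Igfbp1, an IGF binding protein repressed by insulin, was higher in fasted liver by 5.55 ± 1.18 on the log2 scale (adjusted p = 0.00372). Its ratio was 6.56 on arrays 1 and 2 and 4.54 on arrays 3 and 4 (adjusted p of the dye effect 0.00326). The gluconeogenic genes G6pc and Pck1 were higher by 3.60 ± 0.37 and 2.66 ± 0.71, and the coactivator Ppargc1a by 1.20 ± 0.16 on its brighter probe, while its dimmer probe had 0.45 ± 0.18 and missed the 1.5-fold limit. Srebf1, the lipogenic regulator induced by insulin, was lower in fasted liver, with a ratio of -0.93 ± 0.44 (adjusted p = 0.0313, above 0.10 without array 2, 3 or 4). Its call was also lost in limma when the channels were fitted as separate livers without the pairing (adjusted p = 0.122). Fasn, fatty acid synthase, had -0.52 ± 0.25 (adjusted p = 0.0478, above 0.10 in 2 of the 4 fits that left out 1 array) and missed the 1.5-fold limit, but it was called lower under 6 of 19 alternatives, with -0.90 from the processed signals. Pnpla3 was not above the filter on dim probes. Irs2, like the 4 genes repressed by insulin, was higher in fasted liver. With background modelled on all spots G6pc kept its call, while Igfbp1 (adjusted p = 0.177), Pck1 (adjusted p = 0.120), Ppargc1a (0.61, adjusted p = 0.559) and Srebf1 (-0.40, adjusted p = 0.559) lost theirs.

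Around the 8 genes, 8 lists of other pathway genes were read in the same fit: 77 genes, of which 76 were on the array and 63 were kept. Of these, 3 were called higher in fasted liver and 0 lower, or 4.76%, beside 3.95% of all 16054 genes. Their median log2 ratio was 0.04, and that of all genes was 0.00. By role, 0 of 10 receptors and adaptors, 0 of 8 inhibitors that act at the receptor, and 0 of 8 other subunits of phosphoinositide 3-kinase were called. In the lists below the receptor, 1 of 6 lipid phosphatases, 1 of 10 kinases and mTORC2 components, 1 of 6 antagonists of AKT, 0 of 13 AKT substrates and mTORC1 components, and 0 of 2 partners of Tribbles proteins were called.

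The 3 called genes were Inpp5k, Trib3 and Sgk1. Inpp5k, an inositol phosphatase that removes a phosphate from the lipid product of the kinase, had ratios of 0.29, 0.66, 0.74 and 0.90 and a mean of 0.65 ± 0.26 (adjusted p = 0.0283). Trib3, a Tribbles pseudokinase known to bind AKT, had 1.38, 0.59, 0.82 and 0.21 and a mean of 0.75 ± 0.49 (adjusted p = 0.0690). Sgk1, a kinase related to AKT and itself a target of mTORC2, had 1.58, 1.27, 0.60 and 0.16 and a mean of 0.90 ± 0.64 (adjusted p = 0.0782). The Sgk1 mean was 1.42 on arrays 1 and 2 and 0.38 on arrays 3 and 4, with an adjusted p of 0.0458 for the dye effect. All 12 ratios were above 0, and in each gene the 4 fasted livers lay above the 4 re-fed livers. The genes were picked by their calls on these same ratios, so this adds no separate support. Over all kept probes, the groups did not overlap on 13.7%. These calls were less secure than that of Irs2. Without array 2 or without array 3 none of the 3 genes was called, with adjusted p of 0.105 to 0.224, without array 1 Trib3 (0.54) and Sgk1 (adjusted p = 0.151) were lost, and without array 4 Inpp5k (0.57) was lost. Trib3 and Sgk1 were also lost with no filter on dim probes (adjusted p = 0.108 and 0.126), Inpp5k with median centring (0.56), and all 3 with background modelled on all spots.

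A further 7 of the 63 genes had an adjusted p below 0.10 and missed the 1.5-fold limit, as did 7.3% of all 16054 genes. Of these, Rictor and Mlst8 stayed below 0.10 whichever array was left out. Rictor, which defines mTORC2, had a mean ratio of 0.55 ± 0.13 (adjusted p = 0.0195), and Mlst8, a subunit shared by both mTOR complexes, had -0.51 ± 0.061 (adjusted p = 0.0163). In both genes the groups did not overlap, as on 13.7% of all kept probes, but both were picked by adjusted p on these same arrays. Tsc1, which holds mTORC1 in check, had 0.37 ± 0.097 (adjusted p = 0.0446), and Pde3b, a cAMP phosphodiesterase that AKT activates, had 0.29 ± 0.039 (adjusted p = 0.0627). Pik3c2g, a class II lipid kinase of liver, had 0.40 ± 0.22 (adjusted p = 0.0718) on its brighter and 0.17 on its dimmer probe. Socs1, which blocks signalling at receptors, had -0.31 ± 0.11 (adjusted p = 0.0704). Cebpa, the substrate that TRIB1 brings to COP1, had -0.47 ± 0.30 (adjusted p = 0.0788), with ratios of -0.81, -0.63, -0.29 and -0.17. Its dye effect had an adjusted p of 0.0804, with means of -0.72 on arrays 1 and 2 and -0.23 on arrays 3 and 4. With 1 array left out, adjusted p was above 0.10 in all 4 fits for Tsc1 (0.107 to 0.195), Pde3b (0.140 to 0.229) and Cebpa (0.1004 to 0.223), and in 3 of 4 for Socs1 and Pik3c2g. Over all 19 alternatives, adjusted p was at or above 0.10 under 9 for Pde3b, 7 for Cebpa, 6 for Tsc1, 5 for Pik3c2g, 4 for Socs1, and 1 each for Rictor and Mlst8. The 1.5-fold limit was also passed, with a call, under 5 for Rictor, 2 each for Mlst8, Socs1 and Pik3c2g, 1 for Cebpa, and 0 for Tsc1 and Pde3b. Plain subtraction and the processed signals gave -0.64 and -0.80 for Socs1 and 0.72 and 0.83 for Pik3c2g, over 1.5 times the reported values. Foxo1, chosen for mention after its values were seen, exceeded 1.5-fold at 0.62 ± 0.51 and 0.65 ± 0.54 on its 2 probes but had adjusted p of 0.115 and 0.117. It was called higher under 4 alternatives, namely a normexp offset of 16, a dye term, separate channels and the rebuilt SAM. Its ratio on array 2 was 1.37, against 0.23 to 0.47 on the other arrays.

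**Figure D4:**
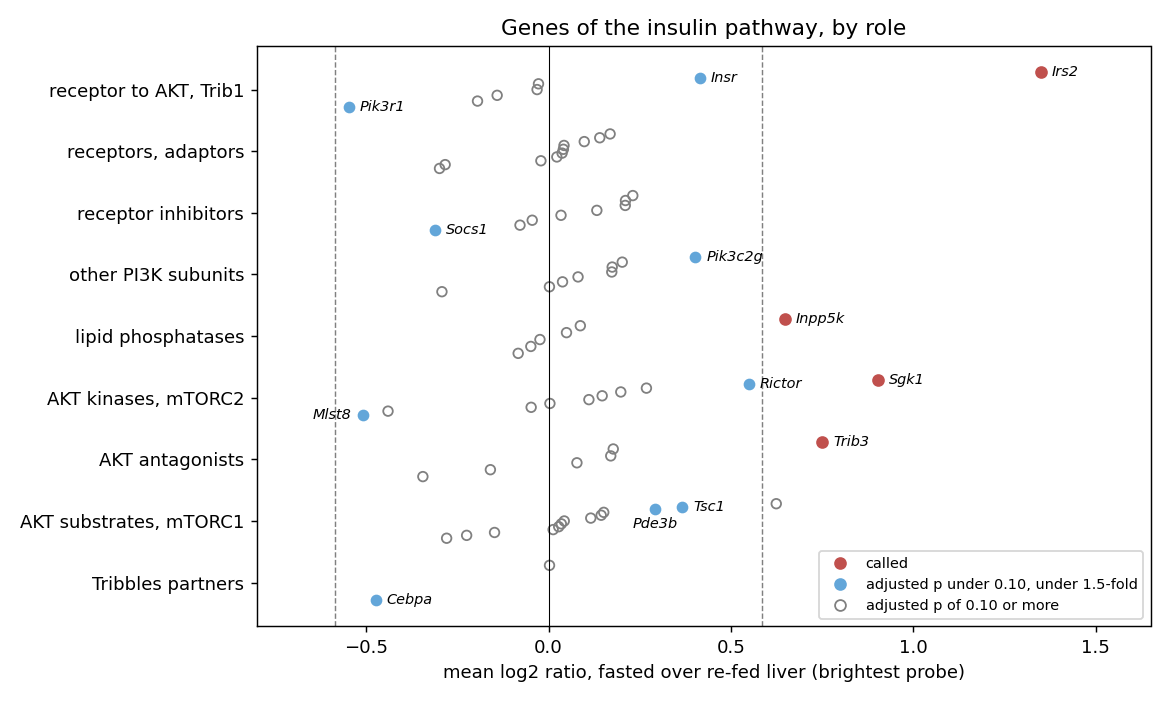
Mean log2 ratio of fasted over re-fed liver (x axis; brightest probe per gene) for the 7 members measured on every array and the 63 kept genes of 8 pathway lists, grouped by role (y axis). Filled red points were called, blue points passed an adjusted p of 0.10 but not 1.5-fold (dashed lines), and open points did not pass. Irs2 lies farthest from 0, and Sgk1, Trib3 and Inpp5k are the other called genes.

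Irs2, Insr and Pik3r1 kept their sign under all 19 alternatives of processing, test and replicates. Irs2 ranged from 0.72 to 1.54 and was called under 18 of them, Insr on its brightest probe ranged from 0.16 to 0.58 and was called under 0, and Pik3r1 ranged from -0.68 to -0.20.

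**Figure D5:**
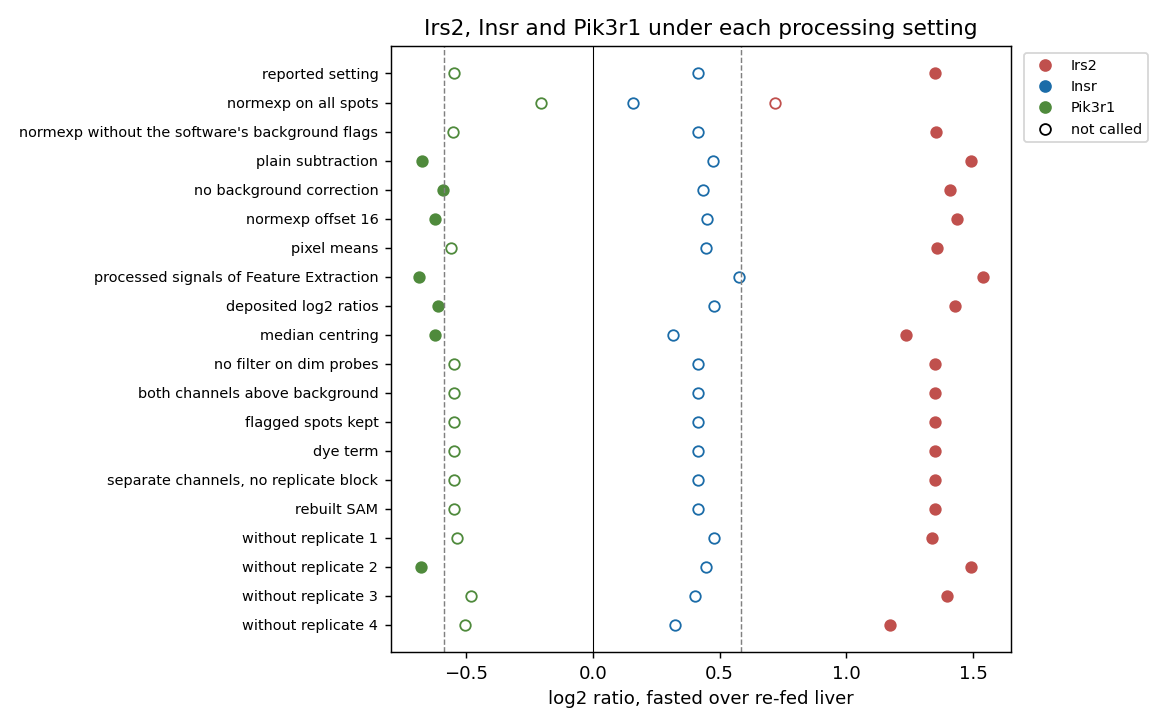
Log2 ratio of fasted over re-fed liver (x axis) of Irs2, Insr (brightest probe) and Pik3r1 under the reported setting and 19 alternatives (y axis). Filled points were called at an adjusted p below 0.10 and at least 1.5-fold (dashed lines), and open points were not. Irs2 is open only where the background was modelled on all spots, and Pik3r1 is filled under 7 alternatives.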

How the data were processed

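RNA from 4 fasted and 4 re-fed livers was hybridised to 4 two-colour arrays. The authors scanned the arrays and captured spot intensity with Feature Extraction, and the deposited median intensity and local background of each channel were used here. Their deposited log2 ratios, made in limma, served as an alternative. Column medians of these were -0.117 to 0.057, and their background step and direction are not given in the sources used here. Matched by row, they correlated at 0.319 to 0.746 with ratios of the processed signals of Feature Extraction, turned to fasted over re-fed. Their correlation with the ratios reported here was not computed.

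In R 4.3.3 with limma 3.58.1, background was corrected by normexp (offset 50), leaving out 55 spots whose local background exceeded 3 times the array median. Ratios were normalised by loess within arrays, with control spots at weight 0. The software's outlier flags removed 197 to 322 spots per array, spots of a probe were averaged, and ratios were turned by dye to fasted over re-fed. Levels are single-channel log2 intensities after Aquantile. Of 39429 probes, 19721 were kept, being well above background on all 4 arrays in at least 1 state and measured on all. Each mean ratio was tested against 0 (lmFit, eBayes; two-sided), and p-values were adjusted over the 19721 probes by the method of Benjamini and Hochberg. Calls needed an adjusted p below 0.10 and 1.5-fold, the limits of the study's methods, which used SAM. The p-values measure the spread between pairs of individual livers, whose small number limits precision.

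Names were updated through RefSeq (GRCm38.p6): 26055 probes matched by accession, 4125 by symbol, and 9249 kept the file's name. Probe coordinates are mm9 as in the files, whose exons were not analysed here. The brightest kept probe stood for a gene where genes were counted. Named were all member probes, pathway genes called, those that missed only the fold limit, insulin targets (of which 1 is not reported here), and the 3 genes closest to each called member. The members and lists were chosen with earlier results of these data known. Alternatives covered background, signal, normalisation, filters, flags, dye, test, thresholds and each array left out.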

Additional observations from a re-analysis of the deposited data

Results flagged for a closer look

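Of 56 sets of 4 values examined, 5 held a value far from the other 3 by Dixon's test, which flags about 1 set in 20 by chance. The Rictor ratio on array 4 was 0.74, above the others. The Pck1 ratio on array 2 was 3.72, above the others. On the third Insr probe, the fasted liver of array 2 was high at 7.51 and the re-fed liver of array 4 was low at 7.04. For Pik3ca, the fasted liver of array 1 was high at 6.83.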

How the results depend on the processing

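Irs2 kept its call without each array in turn (1.17 to 1.49) and under the other alternatives except background modelled on all spots, where 0 member probes and 0 pathway genes were called and calls on the whole array dropped to 5 higher and 15 lower. The cause was not tested. There the Irs1 ratios turned to 0.0118 and 0.0274 and those of 2 Akt2 probes to 0.0108 and -0.125. Plain subtraction called 550 probes higher and 713 lower, and the processed signals of Feature Extraction 686 and 904. Each called 5 pathway genes higher and 3 lower, and an offset of 16 called 5 higher. These settings, no background correction, the deposited ratios and median centring each called 1 member probe lower, that of Pik3r1. Median centring also called 635 probes lower and 1 pathway gene lower, moved the share of calls that were higher from 45% to 26.6%, and shifted the median of all ratios to -0.06. Without the filter on dim probes, and at an adjusted p of 0.05, 1 pathway gene was called higher. With no fold limit 935 probes were called higher and 1208 lower, with 3 member probes higher and 1 lower and 7 pathway genes higher and 3 lower. With a 2-fold limit these were 99 and 132 probes and 0 pathway genes. With 1 array left out, between 208 and 414 probes were called higher and between 257 and 529 lower, the fewest without array 3, beside 0 to 1 member probes lower and 0 to 2 pathway genes higher. Member ratios near 0 changed sign in places: single Akt2 probes to -0.0136 (plain subtraction), 0.00393 (processed signals) and -0.0277 (median centring). Without 1 array, the Irs1 probes ranged from -0.319 to 0.0209 and from -0.127 to 0.0107, the Akt2 probes from -0.0882 to 0.0187, from -0.0984 to 0.0397 and from -0.0875 to 0.135, and the Trib1 probes from -0.313 to 0.0527 and from -0.159 to 0.134. A fit of the 8 channels as separate livers, in which the pairing was dropped (no replicate block), called 323 probes higher and 394 lower, with Irs2 alone among the members. Signal over background limits the dimmest probes, whose ratios the offset shrinks toward 0.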
